A study of Mus musculus with 6 samples.

Results

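The genes described here are the ligands and receptors of the 4 classical axon guidance systems, measured in mouse teratomas that had been injected with a mimic of the neuronal microRNA miR-124a. They were chosen by symbol: every semaphorin (Sema), plexin (Plxn), neuropilin (Nrp), Slit, Robo, netrin (Ntn), Unc5, Dcc, Eph and ephrin (Efn) on the array, with no use of the measured values. The rule took 69 of the 37009 genes and transcript names on the array, through 168 of its 56605 probes. Of the 69 genes, 68 were tested, and all of those were well above background in all 6 tumours. Unc5d was not tested, since its probe was well above background in 0 control tumours and 1 miR-124a tumour.

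Teratomas are growths of several tissues side by side, among them nerve, muscle and cartilage, that arise from pluripotent cells. Here mouse embryonic stem cells were injected under the skin of the flank of BALB/c nude mice, which lack T cells, and the animals were randomised to 2 groups of 3. From about day 10, when a tumour had reached 100 mm3, it was injected every 3 days until day 28 with RNA complexed to the carrier Atelogen QG at 15 µg in 100 µL. The control group received a miRNA negative control and the other group a miR-124a mimic, so all tumours had the same cells, host and carrier. RNA came from 1 of the 2 pieces into which each tumour was cut, and was read with the single dye Cy3 on Agilent arrays. All 6 arrays lay on 1 slide, with the control tumours in row 1 and the miR-124a tumours in row 2, so slide row and treatment cannot be told apart. How much of the mimic reached the cells was not analysed here.

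Guidance molecules steer growing axons and migrating cells. Secreted class 3 semaphorins bind neuropilins, which pass the signal on through plexin-A receptors, while the membrane-bound semaphorins of the other classes mostly bind plexins directly. Slits repel axons through Robo receptors. Netrins attract through Dcc and repel through Unc5. Ephrins and Eph receptors act between touching cells. Each of these systems is also used outside the nervous system, in vessels, muscle and epithelia.

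Values are log2 signals relative to the 75th percentile of the same array, so 0 is the level of that percentile and a difference of 1 is 2-fold. They serve to compare tumours for 1 probe and not 1 gene with another. Differences are miR-124a minus control, with their standard error (SE), and tests are limma's moderated test over all 22946 genes with Benjamini-Hochberg adjustment and a threshold of 0.05.

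At that threshold 7 of the 68 genes differed, or 10.3%, where 3.23% of all genes tested did. The genes that rose were Plxna3, Plxnc1, Sema4f and Sema4g, 5.88% of the 68 against 0.488% of all genes. The genes that fell were Ntn5, Sema3c and Sema6c, 4.41% against 2.75%. All 7 belong to the semaphorins, the plexins and the netrins. Of the Slit, Robo, ephrin and Eph genes 0 of 29 passed the limma test, and 9 of these 29 had an unadjusted p under 0.05, which is near the share of all genes tested, 27.3%.

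Over all 68 genes, the 7 past the threshold included, most differences were small and positive. The difference was above 0 for 50 genes, or 73.5%, against 49.7% of all genes tested. Their median was 0.14 and that of all genes was -0.0022. All 3 miR-124a tumours lay above all 3 controls for 15 genes, or 22.1%, against a background of 15.0%. All 3 lay below for 6 genes, or 8.82%, against 20.6%. The sign of 3 genes turned under another scaling of the arrays: those of Ephb3 and Plxnd1 with quantile scaling and with normexp background correction, and that of Efna1 with the latter.

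**Figure D1:**
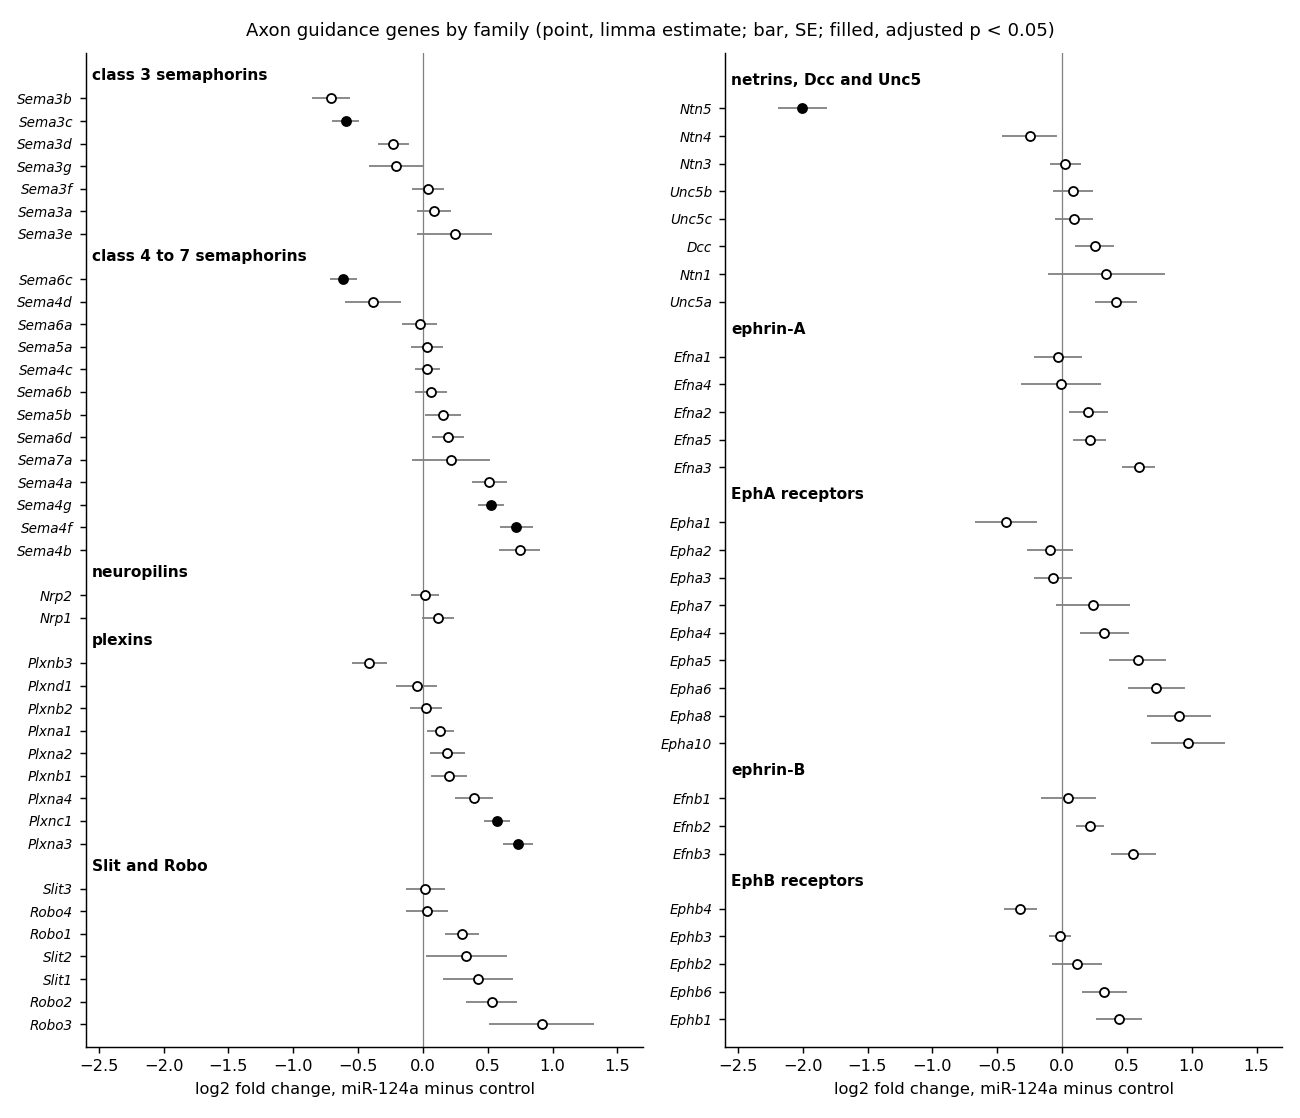
Difference in log2 signal, miR-124a minus control (x axis), for the 68 tested genes by family (y axis), with the SE as bars and filled points for an adjusted p under 0.05 (limma, 3 tumours a group). Ntn5 at -2.0 stands far to the left, the 7 Slit and Robo genes all lie to the right of 0, and 4 of the 7 class 3 semaphorins lie to the left.

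Promoters are shown for genes that changed past the threshold, to set their start regions side by side. They are the 250 bases before the RefSeq gene start in GRCm38.p6, written 5′ to 3′ on the gene's strand in lower case. Capitals mark CAGCTG, an E-box that reads the same on both strands and that many basic helix-loop-helix factors of muscle and nerve can bind. It lay 54 bases before the start of Ntn5 (chr7:45683772-45684021, plus strand), 135 before one of the starts of Sema6c (chr3:95164089-95164338, plus strand) and 46 before that of Sema4g (chr19:44989094-44989343, plus strand). Plxna3 (chrX:74328816-74329065, plus strand) and Sema3c (chr5:17574566-17574815, plus strand) are printed for comparison and do not hold these letters in that window.
Ntn5: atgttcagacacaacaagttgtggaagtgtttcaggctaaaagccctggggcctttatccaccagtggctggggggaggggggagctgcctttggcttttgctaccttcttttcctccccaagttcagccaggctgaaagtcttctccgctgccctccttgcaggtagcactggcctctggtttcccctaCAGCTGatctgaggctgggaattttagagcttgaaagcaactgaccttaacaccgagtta
Sema6c: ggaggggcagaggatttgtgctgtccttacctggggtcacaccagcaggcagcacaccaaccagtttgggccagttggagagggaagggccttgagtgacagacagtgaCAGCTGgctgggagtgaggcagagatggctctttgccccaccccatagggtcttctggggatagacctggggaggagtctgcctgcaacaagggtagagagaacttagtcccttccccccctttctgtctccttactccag
Sema4g: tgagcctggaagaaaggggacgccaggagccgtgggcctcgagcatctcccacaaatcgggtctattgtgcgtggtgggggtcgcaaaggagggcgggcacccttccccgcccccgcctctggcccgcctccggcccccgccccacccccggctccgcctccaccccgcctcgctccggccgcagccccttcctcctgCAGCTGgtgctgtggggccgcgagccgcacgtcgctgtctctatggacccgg
Plxna3: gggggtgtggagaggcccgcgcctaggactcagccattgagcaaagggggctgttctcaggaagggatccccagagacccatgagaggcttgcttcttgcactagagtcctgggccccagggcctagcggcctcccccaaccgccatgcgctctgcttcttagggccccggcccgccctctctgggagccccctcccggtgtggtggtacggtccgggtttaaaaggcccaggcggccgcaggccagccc
Sema3c: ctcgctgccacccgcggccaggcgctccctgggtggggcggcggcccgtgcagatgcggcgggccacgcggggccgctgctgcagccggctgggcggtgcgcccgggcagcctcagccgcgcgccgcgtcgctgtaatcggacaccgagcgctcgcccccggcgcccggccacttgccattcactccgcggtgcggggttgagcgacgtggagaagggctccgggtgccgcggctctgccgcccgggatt

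Of the genes that changed, 3 of 7 hold the E-box in a window: Ntn5 and Sema6c fell, and Sema4g rose. Sema4f, Plxnc1 and the other start of Sema6c do not hold it there. RefSeq windows were matched for 59 of the 69 genes, with 75 windows in all, and 12 of these windows (16.0%) hold CAGCTG against 13.0% of all 32851 promoter windows. Counted by gene, as the 3 of 7 are, 12 of the 59 genes hold it, and a share by gene over the whole genome was not computed. A gene with several windows, such as Sema6c, has more chances to hold it. The match describes the sequence and says nothing of which factor binds it.

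The semaphorins did not all go the same way, and a contrast between their classes was not tested. Among the secreted class 3 members, which act through neuropilins, 1 of 7 fell and 0 rose, where 2.75% of all genes tested fell. Their median difference was -0.20, and 3 of 7 differences were above 0, against 49.7% of all genes tested. Sema3c, a cue for neural crest cells on their way to the heart, read 0.77, 1.05 and 0.82 in control tumours 1 to 3 and 0.31, 0.27 and 0.28 in miR-124a tumours 1 to 3. Every treated tumour was below every control, and Sema3c fell by 0.59 on the log2 scale (SE 0.10, limma adjusted p = 0.043). Its other tested probe gave -0.57. Both probes lie on chromosome 5 in the build of the array annotation, mm9, and the one that stands for the gene at chr5:17235981-17236040.

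Sema3b, another secreted repellent, read 1.23, 1.49 and 0.97 in controls and 0.48, 0.63 and 0.47 after miR-124a. Its groups did not overlap, but the difference of -0.71 ± 0.15 (SE) missed the threshold (limma adjusted p = 0.059). Sema3a, the founding member of the class and a collapsing factor for growth cones, read -1.58, -1.66 and -1.80 against -1.73, -1.37 and -1.68, and the groups overlapped. Its probes disagreed: the one that stands for the gene gave 0.08 and the others -0.58 and -0.50, and the mean of the 3 probes gave -0.33. Of the remaining class 3 genes Sema3d, Sema3e, Sema3f and Sema3g, the differences lay between -0.23 and 0.24 with overlapping groups.

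Of the 13 semaphorins of classes 4 to 7, which are held in the membrane, 2 rose and 1 fell. Among all genes tested 0.488% rose and 2.75% fell. Of the 13 differences 10 were above 0, near the 73.5% of all 68 guidance genes. The 2 that rose are class 4 members, transmembrane ligands. Sema4f read -2.31, -2.40 and -2.59 in controls and -1.81, -1.53 and -1.80 in treated tumours. It rose by 0.72 ± 0.13 (SE; limma adjusted p = 0.0423), without overlap, and by 0.42 with normexp background correction. Sema4g read -0.88, -0.92 and -0.99 in controls and -0.44, -0.28 and -0.49 in treated tumours, also without overlap. It rose by 0.53 ± 0.10 (SE; limma adjusted p = 0.0474), which is close to the threshold.

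Values of the other class 4 genes are given as a description, chosen after they were seen. Sema4b differed by 0.75 ± 0.16 (SE; limma adjusted p = 0.0594), with controls from -2.76 to -2.24 and treated tumours from -1.86 to -1.74. Sema4a differed by 0.51 ± 0.14 (SE; limma adjusted p = 0.087), with controls from 0.61 to 0.97 and treated tumours from 1.14 to 1.46. All treated tumours were above all controls for 4 of the 6 class 4 genes, and for 15.0% of all genes tested. Sema4c was close to equal in the groups (0.03 ± 0.10, SE), and Sema4d, a ligand of plexin-B1, was lower on average at -0.38 ± 0.21 (SE) with overlapping groups. The other tested probe of Sema4d gave -0.0024.

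Sema6c, a transmembrane semaphorin of class 6, went the other way. It read 1.71, 1.99 and 1.87 in controls and 1.29, 1.22 and 1.22 after miR-124a. No treated tumour reached the lowest control, and Sema6c fell by 0.61 (SE 0.10, limma adjusted p = 0.0394). The other tested probe of the gene, also on chromosome 3, gave -0.60. The remaining class 6 genes Sema6a, Sema6b and Sema6d differed by -0.02, 0.06 and 0.19, the class 5 genes Sema5a and Sema5b by 0.03 and 0.15, and Sema7a, a lipid-anchored ligand of plexin-C1, by 0.21 ± 0.30 (SE), all with overlapping groups.

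Among the receptors of these ligands, 2 of 9 plexins rose and 0 fell, where 0.488% of all genes tested rose and 2.75% fell. Of the plexin differences 7 of 9 were above 0, near the 73.5% of all 68 guidance genes. Plxna3, a signalling partner of the neuropilins, read 0.19, 0.08 and 0.28 in controls and 0.88, 1.08 and 0.80 in treated tumours. It rose by 0.73 ± 0.11 (SE; limma adjusted p = 0.0343), and its lowest treated tumour was above the highest control by more than the whole range of either group. The other probe of Plxna3 gave 0.60. Both probes are on the X chromosome, the one that stands for the gene at chrX:71589963-71590022 in mm9.

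Plxnc1, the receptor of Sema7a, read 0.09, 0.21 and 0.10 in controls and 0.71, 0.83 and 0.58 in treated tumours. The groups were apart, and Plxnc1 rose by 0.57 ± 0.10 (SE; limma adjusted p = 0.0429). Its other tested probe gave 0.62. Plxna4 differed by 0.40 ± 0.14 (SE; limma adjusted p = 0.149) and Plxnb3 by -0.41 ± 0.14 (SE; limma adjusted p = 0.122). In both, the groups did not overlap, but the other tested probe of Plxnb3 gave -0.07. Plxna1, the common partner of Nrp1, read 0.87, 1.02 and 1.14 against 1.07, 1.21 and 1.15, with overlap, a difference of 0.13 ± 0.10 (SE). Plxna2, Plxnb1, Plxnb2 and Plxnd1 differed by between -0.05 and 0.20 with overlapping groups.

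The neuropilins, the ligand-binding subunits of the class 3 receptor, did not pass the test. Nrp1 read 2.73, 3.01 and 2.75 in controls and 2.83, 3.09 and 2.90 in treated tumours, a difference of 0.11 ± 0.12 (SE; limma adjusted p = 0.578). Nrp2 read 3.98, 3.83 and 4.14 against 4.06, 3.98 and 3.96, a difference of 0.02 ± 0.11 (SE; limma adjusted p = 0.933). In both the groups overlapped. The 2 other tested probes of Nrp2, at other places of the gene, gave 0.46 and 0.47, so its difference depends on the probe, and the 6 tested probes of Nrp1 ran from -0.23 to 0.39.

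**Figure D2:**
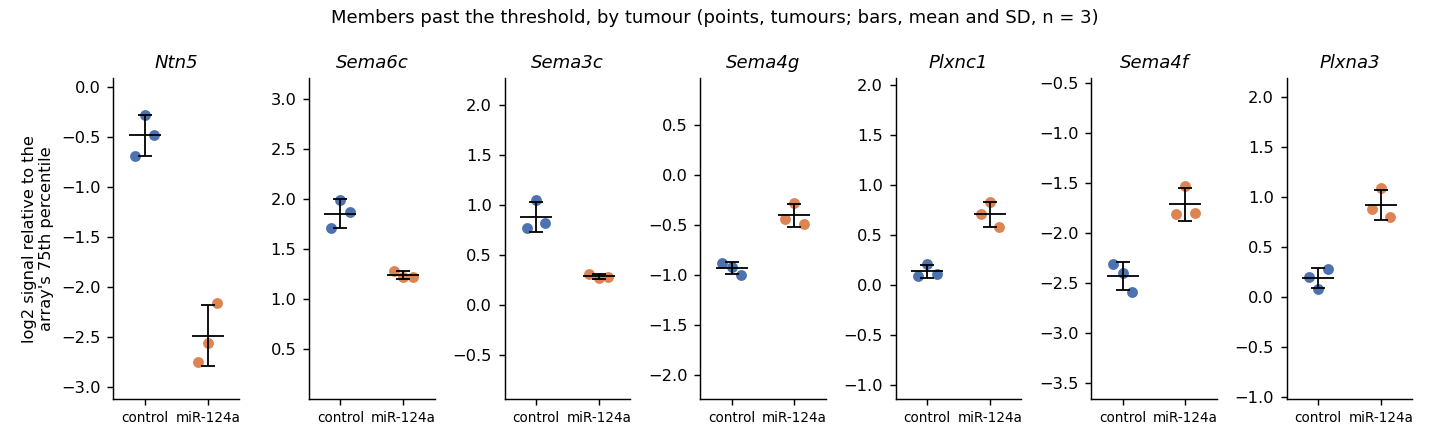
Log2 signal relative to the array's 75th percentile (y axis, the same span in each panel) in each tumour for the 7 genes past the threshold, with the mean and SD of 3 tumours. In each panel the control and treated points do not overlap, and Ntn5 has the widest gap.

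Of the netrins and their receptors, 1 of 8 tested genes fell and 0 rose, where 2.75% of all genes tested fell. Ntn5, a secreted member of the netrin family, read -0.69, -0.28 and -0.48 in control tumours and -2.75, -2.56 and -2.16 in treated tumours. The groups were apart by more than their ranges, and Ntn5 fell by 2.00 on the log2 scale (SE 0.19, limma adjusted p = 0.0194), a level 4.01-fold lower. With normexp background correction the difference was -1.21. Its probe is at chr7:52949867-52949926 in mm9, on the plus strand. The other probe of Ntn5 was above background in 3 of 3 controls and 0 of 3 treated tumours, where its level was at least 2.37-fold lower. That bound sets the control mean against, per array, the lowest signal among probes above background or the probe's own signal, whichever is higher.

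The other netrins did not pass the test. Ntn1, the floor plate attractant, read -0.39, -0.16 and 0.79 in controls and 1.08, -0.36 and 0.55 in treated tumours. Tumours of the same group were up to 1.44 apart, and the difference of 0.34 ± 0.45 (SE; limma adjusted p = 0.651) was smaller than that. Ntn3 differed by 0.03 ± 0.12 (SE) and Ntn4, a component of basement membranes, by -0.25 ± 0.21 (SE), with overlapping groups.

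Dcc, the attractive netrin receptor, read 6.31, 5.78 and 6.12 in controls and 6.41, 6.33 and 6.24 in treated tumours on the brightest of its 6 probes. The difference was 0.25 ± 0.15 (SE; limma adjusted p = 0.32) with overlapping groups. It was 0.48 with quantile scaling, 0.50 with normexp background correction and 0.11 without control tumour 2. That probe is annotated to chromosome 7, whereas the gene is on chromosome 18 in RefSeq, and it was the 1 probe of 167 placed on another chromosome than its gene. The 5 probes on chromosome 18 were far dimmer, with control means from -4.03 to -2.0 against 6.07 for the probe on chromosome 7. They differed by 0.25 to 1.28, all above 0. Which of the probes reports Dcc was not tested, so the values above may not be those of Dcc. Unc5a, a repulsive netrin receptor, read 1.42, 1.43 and 1.00 against 1.54, 1.93 and 1.63. Its groups did not overlap, and the difference of 0.42 ± 0.17 (SE; limma adjusted p = 0.169) did not pass. Unc5b, which also acts in vessels, read 0.77, 0.93 and 0.60 against 0.73, 1.13 and 0.69, with overlap, a difference of 0.08 ± 0.16 (SE). Its probes differed in sign, with -0.13 for the other one. Unc5c differed by 0.09.

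The Slit and Robo genes all had a difference above 0, 7 of 7 with a median of 0.33, and 0 passed the limma test. Of the 7, 1 had an unadjusted p under 0.05, a smaller share than the 27.3% of all genes tested. Slit2, a midline repellent, read 0.94, 0.71 and 1.76 in controls and 1.83, 1.1 and 1.49 in treated tumours. Controls spread over 1.05, and the difference of 0.33 ± 0.31 (SE; limma adjusted p = 0.519) was smaller. Slit1 differed by 0.43 ± 0.27 (SE) and Slit3 by 0.02 ± 0.15 (SE), with overlap. Robo1, a Slit receptor, read 0.67, 0.82 and 1.06 against 1.26, 1.20 and 1.01, a difference of 0.30 ± 0.13 (SE; limma adjusted p = 0.207). The groups overlapped by 1 treated tumour. A second, dimmer Robo1 probe gave 0.87 without overlap and passed in a test over all probes (limma adjusted p = 0.040). All 4 tested Robo1 probes were above 0.

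Robo2 read 0.40, -0.10 and -0.11 in controls and 0.59, 0.87 and 0.32 in treated tumours. It differed by 0.53 ± 0.20 (SE; limma adjusted p = 0.157), and its 7 tested probes gave differences from 0.24 to 0.67. Control tumour 1 was above treated tumour 3. Robo3, which lets commissural axons cross the midline, read -1.54, -1.94 and -0.54 against 0.12, -0.71 and -0.68. Its difference of 0.91 ± 0.40 (SE; limma adjusted p = 0.203) had the largest SE of the Robo genes, and control tumour 3 was above treated tumours 2 and 3. Robo4, a receptor of endothelial cells, differed by 0.03 ± 0.16 (SE).

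Netrin-1, Slit1, Slit2 and Robo3 varied between tumours of the same group, and the highest tumour of each group was the same for all 4. Control tumour 3 was the highest control and treated tumour 1 the highest treated one. Over the 68 genes this combination occurred for 18, and it was not counted over all genes. Over all genes tested, deviations from the group means had a correlation of 0.34 between control tumour 3 and treated tumour 1. That was the highest value of any such pair, so the combination is not particular to these genes. Not every gene with a wide range shared it. Sema7a (ranges 0.91 in controls and 0.79 in treated tumours) and Sema3e (0.33 and 1.18) were highest in control tumour 1 and treated tumour 2. Foxa2 and Shh, which are active in the floor plate that secretes netrin-1, were looked up after the values of the 4 genes had been seen. Foxa2 read -0.02, 0.35 and 1.72 in controls and 1.72, 0.35 and 1.29 in treated tumours. Shh read -0.73, -0.52 and 1.27 against 1.02, -0.59 and 0.37. In both, control tumour 3 and treated tumour 1 were again the highest of their group, and control tumours 1 and 2 and treated tumour 2 were the lowest of the 6. Which tissue the Foxa2 and Shh signal came from was not examined, and their part in the Ntn1 and Slit values was not tested.

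**Figure D3:**
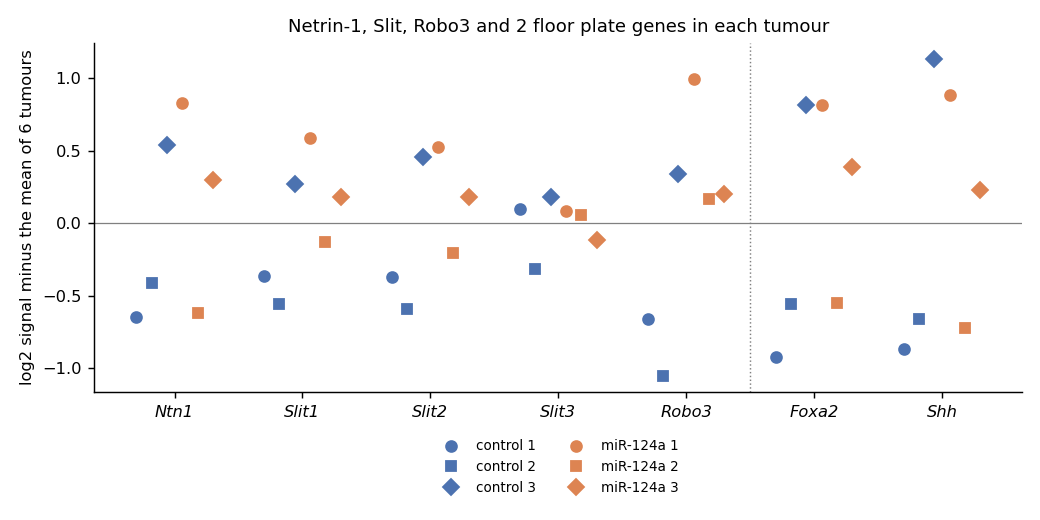
Log2 signal in each tumour minus the mean of the 6 tumours (y axis) for Ntn1, the Slit genes, Robo3 and, right of the dotted line, Foxa2 and Shh (x axis). Control tumour 3 (blue diamonds) and miR-124a tumour 1 (orange circles) lie above the mean for each gene, so the colours do not separate.

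Of the ephrins, the ligands of Eph receptors, 0 of 8 passed the limma test, with 2 at an unadjusted p under 0.05, close to the 27.3% of all genes tested. Efnb3, a transmembrane ephrin of the midline of the spinal cord, read 2.26, 2.51 and 2.78 in controls and 3.27, 2.84 and 3.07 in treated tumours. The groups did not overlap, and the difference was 0.55 ± 0.17 (SE; limma adjusted p = 0.117). Efnb2, a marker of arteries that is also found in neurons, read 1.30, 1.49 and 1.35 against 1.74, 1.52 and 1.52, without overlap, a difference of 0.21 ± 0.11 (SE). Efnb1 read 1.46, 1.61 and 1.87 against 2.08, 1.33 and 1.68, and the treated group reached above and below the controls.

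Among the ephrin-A genes, whose products are held in the membrane by a lipid anchor, Efna3 read -1.65, -1.65 and -1.73 in controls and -1.31, -0.87 and -1.09 in treated tumours. All treated tumours were higher, and the difference of 0.59 ± 0.13 (SE; limma adjusted p = 0.0649) missed the threshold. Of its other probes one gave 0.51 and one -0.15. Efna5 read 0.78, 0.85 and 0.99 against 1.06, 1.29 and 0.92, with overlap, a difference of 0.21 ± 0.13 (SE). Efna1 read 0.21, 0.64 and -0.01 against 0.06, 0.36 and 0.33, a difference of -0.03 ± 0.19 (SE). Efna2 and Efna4 differed by 0.20 and -0.01 with overlapping groups.

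Of the Eph receptor kinases 0 of 14 passed the limma test, with 6 at an unadjusted p under 0.05, against 27.3% of all genes tested. Epha10, which lacks kinase activity, read -4.10, -4.40 and -4.77 in controls and -3.80, -2.89 and -3.67 in treated tumours. It differed by 0.97 ± 0.29 (SE; limma adjusted p = 0.103), but by 0.27 with normexp background correction. Epha8 read -1.0, -0.84 and -1.33 against -0.28, 0.34 and -0.52, a difference of 0.90 ± 0.25 (SE; limma adjusted p = 0.0916). In both, as in Epha6 (0.73 ± 0.22, SE), every treated tumour was above every control, and treated tumour 2 was the highest.

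Epha4, a repulsive receptor of motor axons, read 1.41, 0.83 and 1.13 in controls and 1.33, 1.71 and 1.30 in treated tumours. The groups overlapped, and the difference was 0.33 ± 0.19 (SE; limma adjusted p = 0.302). Epha2, an epithelial receptor, read -0.21, -0.14 and -0.23 against -0.13, -0.67 and -0.04, a difference of -0.09 ± 0.18 (SE). Treated tumour 2 was the lowest of all 6. Epha5 differed by 0.58, Epha7 by 0.24, Epha3 by -0.07 and Epha1 by -0.43, with overlapping groups.

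In the EphB class Ephb1, a receptor of retinal axons at the optic chiasm, read 0.53, 0.89 and 1.00 in controls and 1.23, 1.5 and 1.01 in treated tumours. The groups did not overlap, though the nearest values were 1.00 and 1.01, and the difference was 0.44 ± 0.18 (SE; limma adjusted p = 0.179). The other tested probe of Ephb1 gave 0.0045. Ephb4, the venous partner of ephrin-B2, read 0.25, 0.62 and 0.53 against 0.22, 0.18 and 0.03. All treated tumours were lower, by -0.32 ± 0.13 on average (SE; limma adjusted p = 0.166). Ephb2 read 0.93, 1.39 and 1.66 against 1.56, 1.35 and 1.42, with overlap, a difference of 0.12 ± 0.19 (SE). Ephb3 and Ephb6 differed by -0.01 and 0.33, with overlap.

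Where a gene had several tested probes, they mostly shared a direction. Of 36 such genes, 26 had all probes on the same side of 0 and 10 did not. Ntn5, Sema3c, Sema6c, Plxna3 and Plxnc1 had 2 tested probes each, whereas Sema4f and Sema4g had 1 tested probe. The 2 probes of Sema3c, Sema6c, Plxna3 and Plxnc1 gave similar differences for each gene. Those of Ntn5 shared a direction, and for its second probe only the bound of at least 2.37-fold can be given. In a test over all probes, the second probes of Sema3c, Sema6c, Plxna3 and Plxnc1 did not pass (limma adjusted p from 0.0782 to 0.156). That of Ntn5 was above background in 3 of 3 controls and 0 of 3 treated tumours. It entered the test through the controls alone, so its p is no support and is not given. Among the 10, the probes of Sema5a ran from -0.12 to 0.68, those of Efna3 from -0.15 to 0.59 and those of Sema3a from -0.58 to 0.08. On 1 side of 0, those of Dcc ran from 0.25 to 1.28 and those of Robo1 from 0.30 to 0.87.

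**Figure D4:**
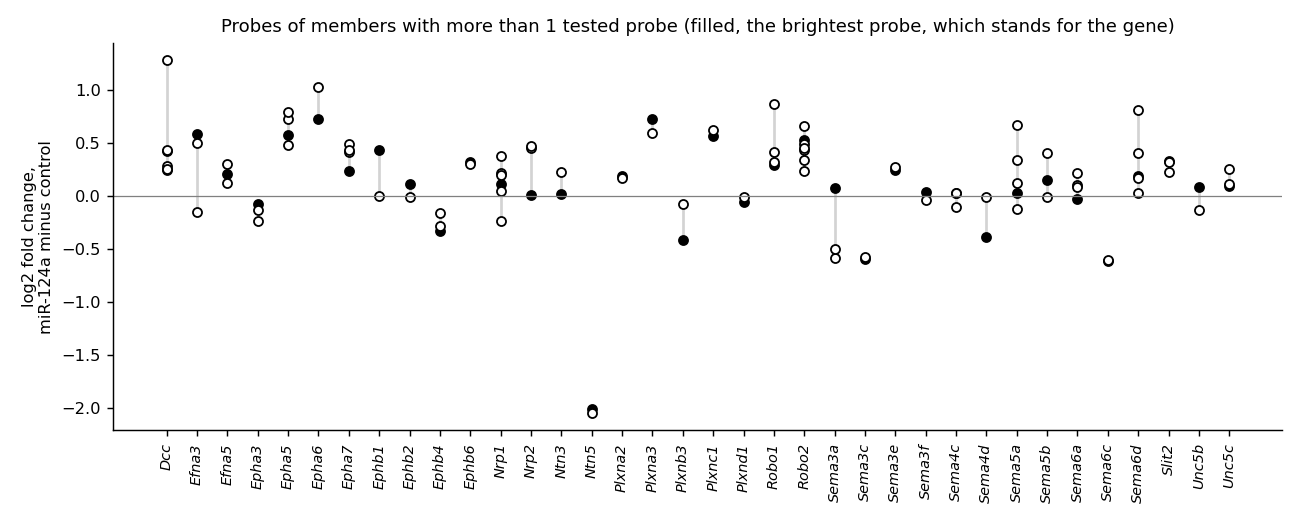
Difference in log2 signal, miR-124a minus control (y axis), of each tested probe of the 36 genes with more than 1 (x axis); the filled point is the brightest probe, which stands for the gene. The probes of Ntn5, Sema3c, Sema6c, Plxna3 and Plxnc1 lie close together, while those of Dcc, Efna3 and Sema3a are far apart. The dimmer Ntn5 probe was not above background in treated tumours.

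Of 85 other genes of the pathway, 84 were tested and 4 changed, 2 up and 2 down, a share near the 3.23% of all genes tested. Draxin, a netrin antagonist, was above background in 0 tumours. Among 57 tested effectors inside the cell, Srgap3 and Srgap1 rose and Cfl2 fell. Srgap3 and Srgap1 are GTPase activators that bind Robo receptors. Srgap3 read 2.60, 2.57 and 2.62 in controls and 3.18, 3.28 and 3.06 in treated tumours, and rose by 0.58 ± 0.09 (SE; limma adjusted p = 0.0363). Srgap1 read 2.07, 2.00 and 2.19 against 2.66, 2.72 and 2.55, and rose by 0.56 ± 0.10 (SE; limma adjusted p = 0.0414). The groups of both were apart by more than either group's range. Srgap2 differed by -0.04. Cfl2, the muscle form of the actin-severing cofilin, read 3.48, 3.77 and 3.43 against 2.58, 2.71 and 2.79, and fell by 0.87 (SE 0.13, limma adjusted p = 0.0303).

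Among the 27 tested co-ligands and co-receptors, 1 fell and 0 rose, where 2.75% of all genes tested fell. Gpc1, a heparan sulfate proteoglycan that binds Slits, read 5.12, 5.38 and 5.14 in controls and 4.39, 4.43 and 4.55 in treated tumours. It fell by 0.76 (SE 0.11, limma adjusted p = 0.0284). Dag1, dystroglycan, differed by -0.53 (limma adjusted p = 0.0502) and Chl1, a neural adhesion molecule of the L1 family, by 0.66 (limma adjusted p = 0.0638), both without overlap. Over the 84 genes 58 differences were above 0 and the median was 0.19, against -0.0022 for all genes tested.

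Of 9 lists of tissue markers, 3 held genes past the threshold and 6 held 0, where 3.23% of all genes tested passed it. Of 12 skeletal muscle markers, 11 fell with a median of -1.64, and their summed signal, in multiples of the array's 75th percentile, was 488 to 763 in controls and 189 to 269 in treated tumours. Of 9 smooth muscle and pericyte markers 2 fell, Acta2 and Actg2, and 3 had a difference above 0, with a median of -0.27. Their sums, in which Acta2 weighs most, were 55.0 to 62.7 and 34.7 to 37.1. Of 9 mesenchyme and cartilage markers 1 fell and 4 had a difference above 0, with a median of -0.30. Their sums, in which the type I and III collagens weigh most, were 209 to 320 and 163 to 201. Of 12 neuronal markers 0 passed the limma test and 12 had a difference above 0, with a median of 0.44 and sums of 131 to 155 in controls and 175 to 220 in treated tumours, highest in treated tumour 2. Neural progenitor markers summed to 90.1 to 102 in controls and 96.7 to 101 in treated tumours. The ranges of glial, endothelial, epithelial and macrophage markers overlapped between groups. Of these markers 0 were below background in every tumour, and the lists were chosen with results of these data known.

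The part of these tissues in the changes of Ntn5, Sema3c and Sema6c, or of Plxna3, Plxnc1, Sema4f and Sema4g, was not tested. In whole-tumour RNA, fewer cells of a type and less RNA per cell cannot be told apart. Treated tumour 2 was the highest treated tumour for 12 of the 15 guidance genes whose treated tumours were all above the controls. Those genes were picked by the same values, and the matching count over all genes was not made. Treated tumour 2 also had the highest neuronal sum, and a link between the 2 was not tested. Among controls the neuronal sum was highest in tumour 1, at 155 against 144 and 131. Of the 68 genes, control tumours 1, 2 and 3 were highest of their group for 21, 24 and 23. Of the 68 genes, treated tumour 2 was highest of its group for 34, tumour 1 for 31 and tumour 3 for 3.

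With 1 tumour left out, few of these calls remained. Without control tumour 1 or 2, or miR-124a tumour 1 or 2, limma called 0 of the 68 genes, with 16 to 23 at an unadjusted p under 0.05. Of all genes these fits called 15, 1, 2 and 0, in that order, so the loss was not particular to guidance genes. Without control tumour 3 or miR-124a tumour 3 limma called Ntn5, and 368 and 366 of all genes. Over these fits the adjusted p of Ntn5 ran from 0.0269 to 0.0847 and its difference from -2.17 to -1.87, and the adjusted p of the other 6 genes ran from 0.0558 to 0.157. With normexp background correction 9 of the 68 genes passed, against 6.71% of all genes tested. The 2 added were Sema4a at 0.47 and Sema3b at -0.56.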

How the data were processed

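Per the file headers, the intensity deposited for each spot is the processed signal of Agilent Feature Extraction 11.5.1.1, background-subtracted and detrended on each array alone and so not scaled between arrays. The authors' deposited value table holds log2 values that equal the log2 intensity shifted by a constant per array (SD of the difference 0.0029 to 0.0032). Its medians ran from -3.07 to -2.97, it was not centred per probe, and it served as an alternative. Each array held 62976 spots, 59305 of them not controls, 0 were saturated, and 63.4% to 65.9% of probes were well above background. Here spots of a probe were averaged on the log2 scale and the array's log2 75th percentile (intensities of 279 to 315) was subtracted; 22 probes flagged as outliers, 1 of them for Plxna2, were left out.

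To be tested, a probe had to be well above background in every tumour of 1 group or the other, and a gene's brightest tested probe stood for it. Symbols came from the array files. The test was lmFit with eBayes of limma 3.58.1 (R 4.3.3) on all 6 arrays, with no covariates and 3 tumours a group. Figures were drawn with matplotlib 3.10.9. Data were also simulated for this comparison over 22946 independent genes, 22746 of them left as they were. There the test called 18.0% of the 1.5-fold changes put in, 49.0% of the 2-fold ones and 78.0% of the 4-fold ones. It called 0.0308% of the genes left as they were. In the measured data 742 genes passed, so these rates need not apply there.

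Named genes were those past the threshold, the 2 with the smallest p in each of 10 families, 16 reported always and 3 from either section of the pathway list; others are given as differences, and those in the closing observations, Foxa2, Shh and the class 4 semaphorins beside Sema4f and Sema4g were chosen after their values were seen. The genes, lists and motif were chosen with earlier results of these data known. Alternatives were quantile scaling, normexp with an offset of 50, the value table, other filters on dim probes, averaged probes per gene, a replicate block, variance trend with robust estimation, array weights and leaving out each tumour. Labels do not say that tumours of 1 number belong together.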

Additional observations from a re-analysis of the deposited data

How the results depend on the processing

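The count of 7 guidance genes past the threshold stayed within 1.5 times under quantile scaling (7), normexp (9), the authors' value table (7), the filter on all 6 arrays (7), variance trend with robust estimation (10) and array weights (7). Over all genes tested these settings called 850, 1540, 718, 764, 1720 and 735, in that order, against 742 in the main fit. The count of guidance genes fell to 4 with probes averaged per gene and to 1 without a filter on dim probes. It was 0 with the replicate block (limma, 18 at an unadjusted p under 0.05) and between 0 and 1 when a tumour was left out. Over all genes those settings called 731 of 22946, 96 of 37002, 0 of 22946 and between 0 and 368. The 0 with the replicate block is thus not particular to guidance genes. The count of 4 pathway genes became 7 with quantile scaling, 14 with normexp, 9 with variance trend, 0 without the filter (25 unadjusted), 0 with the replicate block (22 unadjusted) and 0 without any 1 tumour (15 to 31 unadjusted). The calls over all genes in these settings are those given above. Deviations of same-numbered tumours from their group means had correlations of -0.16, -0.039 and -0.065, and those of other pairs ran from -0.21 to 0.34. The value of 0.34 was that of control tumour 3 with miR-124a tumour 1. With 3 tumours a group these values cannot settle whether the numbers mark pairs. The count of genes whose probes agree was 26 and, over all probes, 28.

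Of 495 values for the 33 named genes, 421 kept direction and side of the threshold, 57 lost the call, 4 gained it and 13 turned sign; the cause was not tested. With the mean of probes, Sema3a became -0.33 and Unc5b -0.022. Efna1 became 0.011 with normexp. When a tumour was left out, Efna1 ran from -0.18 to 0.15, Efnb1 from -0.14 to 0.23, Epha2 from -0.21 to 0.10, Ephb2 from -0.083 to 0.28, Nrp2 from -0.060 to 0.093, Sema3a from -0.028 to 0.15 and Unc5b from -0.054 to 0.17. Over all genes, leaving out a tumour gave between 0 and 368 calls against 742. The number of arrays limits the precision.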

Other observations

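Genes near Ntn5 were looked up after its values were seen. Mamstr, a coactivator of the muscle transcription factor MEF2, read -0.66, -0.20 and -0.72 in control tumours and -2.44, -2.16 and -2.15 in miR-124a tumours. It fell by 1.72 on the log2 scale (SE 0.17, limma adjusted p = 0.0194), and its groups did not overlap. Car11, a brain-expressed relative of the carbonic anhydrases, differed by 0.49 (limma adjusted p = 0.129), and Dbp, a transcription factor of the circadian clock, by -0.39 (limma adjusted p = 0.24). Both were apart between groups without passing the threshold.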
